A study of Mus musculus with 4 samples.

Results

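The immunoglobulin kappa variable (Igkv) genes were examined in RNA of Lin-LEPR+ bone marrow cells, sorted for the leptin receptor and against Ter119, CD31 and CD45. The members were taken by position and class alone. They are the transcripts of biotype IG_V_gene on chromosome 6 that start beyond 60 Mb in NCBI Build 37 (mm9), which gave 99 of the 95883 transcripts counted. Of these, 97 carry an Igkv symbol and 2 carry other names, Gm16637 and Gm16774. All 4 libraries came from wild-type (WT) C57Bl/6 male mice without further treatment. There were 2 libraries of mature mice, aged 3 months, and 2 of elderly mice, aged 24 months. The study's methods describe RNA of 3 to 4 mice pooled for each group, whereas the titles number each library as a mouse. Whether the 2 libraries of an age came from separate mice is not given. Each library is called a pool here, so an SD with n = 2 describes 2 pools and not single animals. Any p-value likewise compares pools. For single transcripts, edgeR takes the spread mostly from all transcripts tested (mean prior degrees of freedom 20.5). Such a p-value is therefore not set by a member's own pools alone. By its labels the material was whole bone marrow and by the study's methods sorted cells, and the cells' own markers are given with the results below.

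A kappa light chain is assembled in developing B cells. The RAG recombinase joins 1 V gene to 1 of the J genes, and splicing then links the joined exon to the constant exon, Igkc. Each B cell or plasma cell and its progeny therefore transcribe mainly a single Igkv gene, and plasma cells, which secrete antibody, hold far more of this RNA per cell than resting B cells. V genes that lie in the same orientation as the J genes join by deletion of the DNA between them, and V genes in the opposite orientation join by inversion. B cells carry CD45, which the sort selected against.

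The 99 members spanned chr6:67505630-70654171 and lay between 18.4 and 3166.3 kb from Igkj1, the first J gene (chr6:70672556-70672593), with Igkc beyond it (chr6:70676429-70676751). There were 38 on the forward strand, as are the J genes and Igkc, and 61 on the reverse strand, in 19 families named by the number before the dash. The annotation gave 83 members a leader exon and a V exon and 16 members a V exon alone. Every exonic base of every member was free of other annotated transcripts, between 123 and 374 bases per member, so each could receive reads of its own. A further 3 Igkv symbols of another biotype (Igkv1-115, Igkv4-71 and Igkv4-69) had 0 counts.

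The recombination signal marks where a V exon is cut and joined. It consists of a heptamer, a spacer of 12 bases and a nonamer, with CACAGTG and ACAAAAACC as the usual letters. It is printed here, after the last 20 bases of the V exon, for the most abundant members of the elderly libraries, for Igkv1-88, which was found in every library, and for the leading member of each mature library (Igkv1-110 and Igkv3-7). Capitals mark the 7 bases at the place of the heptamer and the 9 bases that follow a fixed spacer of 12 bases. In Igkv4-63, a closer match to the usual nonamer begins a base before the capitals. All sequences are read from the Build 37 genome in the direction of the gene.
Igkv6-20 (chr6:70285807-70285854, reverse strand): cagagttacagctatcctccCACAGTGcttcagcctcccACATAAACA
Igkv4-63 (chr6:69327910-69327957, reverse strand): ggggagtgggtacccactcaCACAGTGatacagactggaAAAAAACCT
Igkv14-126 (chr6:67846617-67846664, forward strand): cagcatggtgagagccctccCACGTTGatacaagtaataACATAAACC
Igkv4-50 (chr6:69650733-69650780, reverse strand): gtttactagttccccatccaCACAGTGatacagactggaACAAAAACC
Igkv5-39 (chr6:69850390-69850437, reverse strand): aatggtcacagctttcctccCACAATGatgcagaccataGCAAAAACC
Igkv1-88 (chr6:68812231-68812278, reverse strand): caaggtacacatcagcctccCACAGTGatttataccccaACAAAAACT
Igkv1-110 (chr6:68221242-68221289, forward strand): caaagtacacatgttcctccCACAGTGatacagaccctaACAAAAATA
Igkv3-7 (chr6:70558011-70558058, forward strand): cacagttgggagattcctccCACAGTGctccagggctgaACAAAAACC

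Igkv4-50, abundant in 1 elderly pool, and Igkv3-7, found in 1 mature pool, held both usual elements without a mismatch. The heptamer place had 2 mismatches in Igkv14-126 and 1 in Igkv5-39, although both were among the 5 most abundant members. Over all members, 83 of 99 held CACAGTG within 12 bases of the V exon's end. It was present in 44 of the 51 members found with more than 3 counts in any library, in 17 of 20 with fewer counts, and in 22 of 28 with 0 counts in all libraries. Of the 83, the nonamer at a spacer of exactly 12 bases was exact in 31, had 1 mismatch in 34 and had 2 or more in 18. These shares are close to each other, and no test was made of them.

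Upstream of many V genes lies an octamer, ATTTGCAT on the strand of the gene, which is bound by the factors Oct-1 (Pou2f1) and Oct-2 (Pou2f2). It is shown in capitals with its surroundings for 4 members that were higher in the elderly libraries.
Igkv14-126 (chr6:67846064-67846103, forward strand): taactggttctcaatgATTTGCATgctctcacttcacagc
Igkv4-50 (chr6:69651365-69651404, reverse strand): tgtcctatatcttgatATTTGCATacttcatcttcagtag
Igkv10-94 (chr6:68655042-68655081, reverse strand): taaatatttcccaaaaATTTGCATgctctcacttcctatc
Igkv17-127 (chr6:67811046-67811085, forward strand): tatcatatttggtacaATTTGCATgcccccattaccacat

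Of the 82 members whose leader exon begins with a start codon, 60 (73.2%) held ATTTGCAT between 250 bases before and 50 bases after that codon, all within -109 to -83 (median -100). Over all 86990 such windows of annotated transcript starts, 769 (0.884%) held it. The reverse complement, ATGCAAAT, was in no member window and in 741 (0.852%) of all windows. Families 6, 7 and 8 had the octamer in 0 of 15 members, and the other families had it in 60 of 67. Igkv6-20, the most abundant member in both elderly libraries, was thus among those whose window does not hold these letters. The octamer was found for 31 of 44 detected members, 11 of 16 with fewer counts and 18 of 22 with 0 counts.

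Many members are near copies of each other, which bears on every count below. Identity of the V exon to the nearest other member ranged from 39.3% to 99.0% (median 92.9%), and 30 members reached 95% or more. Of all 40-base stretches in a member, which is the length of the reads, between 10.9% and 100% (median 66.2%) occurred nowhere else in the genome, and 29 members were under 50%. The pair around the leading elderly member shows this. Igkv6-20 and Igkv6-29 were 97.3% identical, and capitals mark the bases in which each V exon differs from the other, including 3 at the start of the Igkv6-20 exon that lie outside the annotated exon of Igkv6-29.
Igkv6-20 (chr6:70285835-70286132, reverse strand): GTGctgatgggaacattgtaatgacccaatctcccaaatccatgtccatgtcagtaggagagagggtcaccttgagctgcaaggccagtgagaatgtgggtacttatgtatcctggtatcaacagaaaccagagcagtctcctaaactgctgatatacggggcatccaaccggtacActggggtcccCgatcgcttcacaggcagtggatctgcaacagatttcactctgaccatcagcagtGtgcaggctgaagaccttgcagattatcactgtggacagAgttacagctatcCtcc
Igkv6-29 (chr6:70088456-70088750, reverse strand): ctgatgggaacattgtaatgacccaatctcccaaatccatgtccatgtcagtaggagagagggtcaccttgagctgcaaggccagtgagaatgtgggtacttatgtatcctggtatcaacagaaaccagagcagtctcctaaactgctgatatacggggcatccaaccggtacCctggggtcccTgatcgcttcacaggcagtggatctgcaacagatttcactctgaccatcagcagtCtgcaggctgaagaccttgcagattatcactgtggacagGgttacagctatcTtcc

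Of the 40-base stretches, 34.5% of those in Igkv6-20 and 40.2% of those in Igkv6-29 were unique. Igkv6-20 was counted 492 and 723 times in elderly pools 1 and 2, against 0 and 2 times in mature pools 1 and 2. Igkv6-29 was counted 0 times in 3 libraries and once in the library of elderly pool 2. The split of counts between such copies is uncertain, and the handling of reads that map to several places is not given in the sources used here. The median share of unique stretches was 61.0% for detected members, 64.65% for those with fewer counts and 83.7% for those at 0 throughout.

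Total Igkv RNA was far higher in the elderly libraries. All members together received 85 (pool 1) and 61 (pool 2) counts in mature mice, whereas the elderly pools gave 2462 and 2717, out of 10472117 to 15650518 counts per library. In CPM, that is, counts relative to the TMM-scaled size of each library, this was 7.15 (95% exact Poisson interval 5.71 to 8.85) and 5.19 (3.97 to 6.67) in mature pools 1 and 2, and 219 (211 to 228) and 186 (179 to 193) in elderly pools 1 and 2. These intervals and those below cover counting error only. Mature pools averaged 6.17 ± 1.39 CPM (SD, n = 2), and elderly pools, at 202.5 ± 23.8 CPM (SD, n = 2), stood 32.8 times as high. The groups did not overlap, and the gap was many times the spread between pools. Pools of 2 against 2 cannot give an exact permutation p below 0.33, so none is given. Without the most abundant member of each library, the levels were 3.11, 2.81, 176 and 136 CPM. In bulk RNA, fewer cells of a type and less RNA per cell cannot be told apart.

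The constant exon that follows every kappa V-J join moved by a similar amount. Igkc was counted 208 and 177 times in mature and 4716 and 6327 times in elderly libraries (17.5, 15.06, 420 and 432 CPM), a ratio of means of 26.2. In a fit on counts summed per gene, its log2 fold change was 4.67 (SE 0.23, adjusted p = 4.7e-07, edgeR's quasi-likelihood test, Benjamini-Hochberg adjusted over 21340 genes). In the same gene-level fit, 0.942% of all genes were called higher and 0.159% lower at an adjusted p under 0.05 and a log2 fold change over 2. For each Igkc count there were 0.409 and 0.345 Igkv counts at 3 months and 0.522 and 0.429 at 24 months. Per count of the heavy chain constant transcripts (Ighm, Ighg, Ighg1 and Ighg2c), there were 0.0971 and 0.104 Igkv counts at 3 months and 0.221 and 0.203 at 24 months. Relative to these heavy chain transcripts, the Igkv counts of the ages did not overlap. Their sum lacks the other heavy chain constant genes, Igha among them, and so is not all heavy chain RNA. Within it, Ighg1 had 0, 0, 703 and 4 counts and Ighg2c had 0, 188, 835 and 4. The 5 short J exons together received 18, 12, 75 and 58 counts, of which Igkj4 had 34 in elderly pool 1 and 0 in elderly pool 2, and Igkj2 had 12 and 41. None of the 5 J genes passed the test in either direction.

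**Figure D1:**
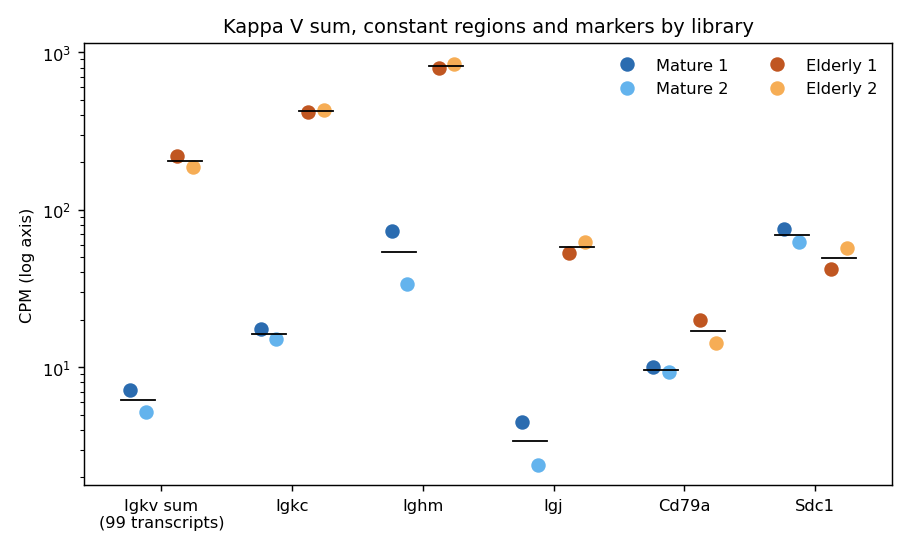
CPM on a log axis for the sum of the 99 Igkv transcripts, the constant exons Igkc and Ighm, the J chain gene Igj, the B-cell receptor gene Cd79a and the plasma cell surface gene Sdc1. Points are the 4 libraries and bars the means of 2 pools per age: the Igkv sum lies at 7.15 and 5.19 CPM in mature and 219 and 186 CPM in elderly pools, whereas Sdc1 lies at 74.9 and 62.4 CPM in mature and 41.9 and 57.5 CPM in elderly pools.

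Other genes of antibody-secreting and B-lineage cells moved unevenly with the Igkv sum. Of the 9 plasma cell genes tested, 3 rose at an adjusted p under 0.05 and 0 fell, against 2.28% of all genes higher and 0.45% lower by this rule. Prdm1, the regulator of plasma cell fate, had 0 and 0 counts in mature and 45 and 51 in elderly libraries (adjusted p = 0.0019). Igj, which links IgA and IgM units, had 53, 28, 595 and 914 counts (log2 fold change 4.03, SE 0.32, adjusted p = 5.6e-05). Fam46c, a poly(A) polymerase that acts on immunoglobulin RNA, had 2782, 1856, 5097 and 9433 counts (log2 fold change 1.44, SE 0.24, adjusted p = 0.0070). Sdc1, which encodes the surface protein CD138, stood at 74.9, 62.4, 41.9 and 57.5 CPM (adjusted p = 0.400), and Xbp1, a regulator of secretion, at 56.98, 50.8, 44.7 and 43.5 CPM (adjusted p = 0.647). Neither passed the test, and in both genes the elderly values lay below the mature ones. The summed level of the plasma cell list was 385 and 289 CPM in mature and 621 and 829 CPM in elderly libraries, and its median log2 fold change was 0.63, beside 0.016 for all genes. Fam46c carried most of the summed difference. Without it, a sum computed after the data were seen, the list stood at 151, 131, 167 and 184 CPM, and the ratio of the elderly to the mature mean was 1.24 in place of 2.15. Tnfrsf17 had 2 counts or fewer everywhere, and Irf4 has only 3 bases that could be counted.

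Of 7 B-lineage genes tested, 0 passed the test in either direction. Cd79a, a subunit of the B-cell receptor, had 119, 109, 223 and 209 counts (adjusted p = 0.275), and Ms4a1 (CD20) had 0, 0, 9 and 11 (adjusted p = 0.161). In both genes the lower elderly value exceeded the higher mature one. Cd79b and Cd22 were at 0 throughout. The list's summed level was 21.6 and 22.9 CPM in mature and 38.4 and 32.7 CPM in elderly libraries (median log2 fold change 0.78). Ptprc, which encodes CD45, was counted 4, 1, 12 and 8 times over 152 countable bases. The part of any cell type in the Igkv difference was not tested.

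Among the 15 tested genes for kappa rearrangement and transcription, 3 rose and 0 fell, none of them past a log2 fold change of 2. They were Rag1, a subunit of the recombinase (315, 235, 745 and 685 counts, log2 fold change 1.24, adjusted p = 0.0232), Irf8, a factor that binds light chain enhancers (437, 504, 1029 and 1202 counts, log2 fold change 1.09, adjusted p = 0.0162) and Ikzf3, which encodes Aiolos of the Ikaros family (84, 38, 249 and 203 counts, log2 fold change 1.76, adjusted p = 0.0314). Over all genes, 2.28% rose and 0.45% fell at an adjusted p under 0.05. The list's median was 0.95. Ebf1, its most abundant gene, stood at 712, 642, 412 and 560 CPM, and Nfkb1 at 13.5, 16.2, 11.9 and 9.70 CPM. Neither passed the test, and in both the elderly values lay below the mature ones. The list summed to 842, 757, 689 and 771 CPM. The ratio of the elderly to the mature mean was 0.913, and 1.99 without Ebf1. Pax5, the B-cell identity factor, had 3, 7, 23 and 11 counts (adjusted p = 0.533), and Rag2, the other recombinase subunit, had 3, 5, 12 and 4. Of 9 surrogate and lambda light chain genes tested, 1 rose, the lambda constant gene Iglc2, with 0, 0, 36 and 34 counts (adjusted p = 0.0048). Iglv1, a lambda V gene, had 9, 2, 124 and 19 counts (adjusted p = 0.0564). The surrogate light chain genes Vpreb1 (12, 2, 9 and 14 counts) and Igll1 (12, 16, 6 and 18 counts), which precede kappa in pre-B cells, overlapped between the ages. Vpreb3 (3, 5, 10 and 8 counts) and Vpreb2 (2, 0, 2 and 13 counts) were in CPM higher in both elderly libraries, and neither passed the test.

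The sorted cells' own markers were abundant in all libraries. The 9 LEPR+ stromal genes summed to 29206 and 30244 CPM in mature and 18485 and 27777 CPM in elderly libraries, and 0 of 9 passed the test. All 9 had a negative log2 fold change, with a median of -0.35, beside 0.016 for all genes. Genes of other blood cells moved as well. The neutrophil list summed to 1954, 1133, 4268 and 4371 CPM (4 of 6 genes tested rose), the erythroid list to 285, 108, 735 and 907 CPM (3 of 5 rose), and the T cell list to 2.44, 3.57, 17.6 and 7.58 CPM (0 of 6). The endothelial list stood at 17.3, 27.1, 20.8 and 19.3 CPM (0 of 4). Without the most abundant gene of each list, again computed afterwards, the ratio of the elderly to the mature mean was 7.17 in place of 4.19 for the T cell list (without Cd247) and 2.79 in place of 0.8999 for the endothelial list (without Pecam1). Their relation to the Igkv difference was not tested.

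More members were found in the elderly libraries, in part because more Igkv counts were drawn there. A member was taken as detected at more than 3 counts, which corresponds to 0.205 to 0.267 CPM. There were 7 and 3 such members in mature and 37 and 28 in elderly libraries, and 12, 15, 55 and 46 with at least 1 count. Over all libraries 51 of 99 were detected, of which 42 were detected in elderly libraries alone, 4 in mature libraries alone (Igkv3-7, Igkv8-27, Igkv1-122 and Igkv9-123) and 5 at both ages. A further 20 had counts but never more than 3, and 28 had none. Members at 100 counts or more numbered 8 in each elderly library and 0 in each mature library.

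At equal depth the difference in number shrank. When each library was reduced to the smallest Igkv total of 61 counts (expected values of exact thinning), 10.6 and 15 members were expected with at least 1 count in mature and 19.1 and 14.5 in elderly libraries, so the ages overlapped. At more than 3 counts the expected numbers were 3.90 and 3 in mature and 5.67 and 5.08 in elderly libraries. When only the library totals were equalized, to 10472117 counts, 5.55, 2.64, 37 and 22.1 members exceeded 3 counts. In the mature libraries, 3 counts correspond to 3.53% (pool 1) and 4.92% (pool 2) of the Igkv pool. Members at or below these shares were not taken as detected there, even where they had counts.

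Each mature library was dominated by 1 member, and not by the same one. Igkv1-110 gave 48 of 85 counts in mature pool 1 (56.5%, exact binomial interval 45.3 to 67.2) and 0 in mature pool 2. Igkv3-7 gave 28 of 61 counts in mature pool 2 (45.9%, 33.1 to 59.2) and 0 in every other library. In both elderly libraries the leading member was Igkv6-20, with 19.98% (18.4 to 21.6) of the counts in pool 1 and 26.6% (25.0 to 28.3) in pool 2. The intervals of the mature and elderly leading shares did not overlap. They do not allow for the choice of the highest member in each library, so this is a description and not a test of age.

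The 5 leading members held 84.7% and 75.4% of the Igkv counts in mature and 56.2% and 71.5% in elderly libraries. It took 1 and 2 members to reach 50% of the counts in mature and 4 and 3 in elderly libraries. The effective number of members (the inverse Simpson index, which equals the number of equally abundant members that would give the same concentration) was 2.95 and 4.197 in mature and 11.4 and 7.21 in elderly libraries. Corrected for countable bases, the leading members stayed in place with 55.5%, 49.9%, 18.5% and 24.1%.

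**Figure D2:**
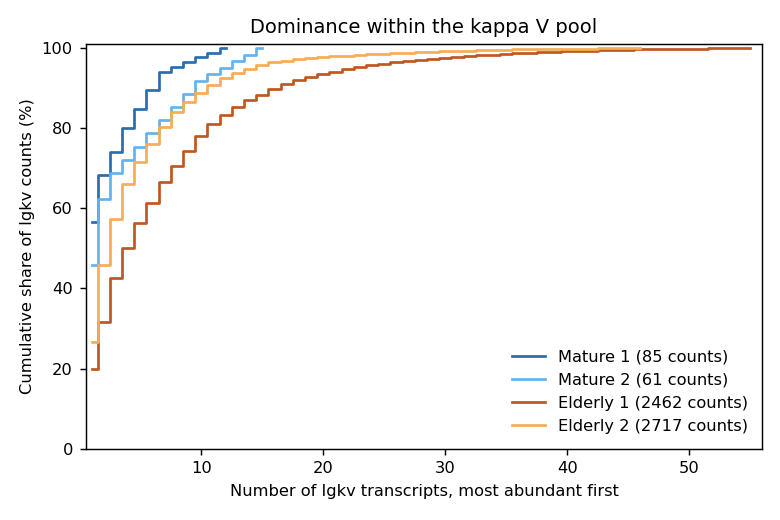
Cumulative share of Igkv counts (%) against the number of members, from the most abundant down, for each library. The curves of mature pools 1 and 2 begin at 56.5% and 45.9% and those of elderly pools 1 and 2 at 19.98% and 26.6%, and the mature curves end at 12 and 15 members.

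The elderly pools shared many members but in different amounts. Of the detected members, 18 were common to both elderly libraries, which is 48.6% of the 37 in pool 1 and 64.3% of the 28 in pool 2. The mature libraries shared 1, Igkv1-88, which is 14.3% of 7 and 33.3% of 3. Between ages, 1 to 4 members were shared per pair of libraries. The Morisita-Horn index, which is 1 for equal shares and 0 for no member in common, was 0.563 for the elderly pair, 0.0290 for the mature pair and 0.0112 to 0.113 for the 4 pairs of mature and elderly libraries. With 85 and 61 counts, overlap among mature libraries is limited by depth.

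Of the 10 most abundant members of each elderly library, 3 were the same (Igkv6-20, Igkv14-126 and Igkv5-39). Among the 14 members with 100 counts or more in either elderly library, 2 reached it in both, Igkv6-20 (492 and 723 counts) and Igkv14-126 (102 and 318 counts). Of the 20 members with 50 counts or more in either, 16 differed more than 5-fold in their share of the Igkv pool, and 1, Igkv6-20, differed less than 2-fold. Igkv4-50 (287 counts) and Gm16637 (150 counts) were seen in elderly pool 1 and at 0 in pool 2, and together made up 17.7% of pool 1. Igkv4-63 (520 counts), Igkv4-57-1 (113) and Igkv6-15 (103) were seen in elderly pool 2 with 0, 0 and 2 counts in pool 1, and made up 27.1% of pool 2. Pools of the same age thus differed by far more than the 3 counts used as the detection cut-off.

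**Figure D3:**
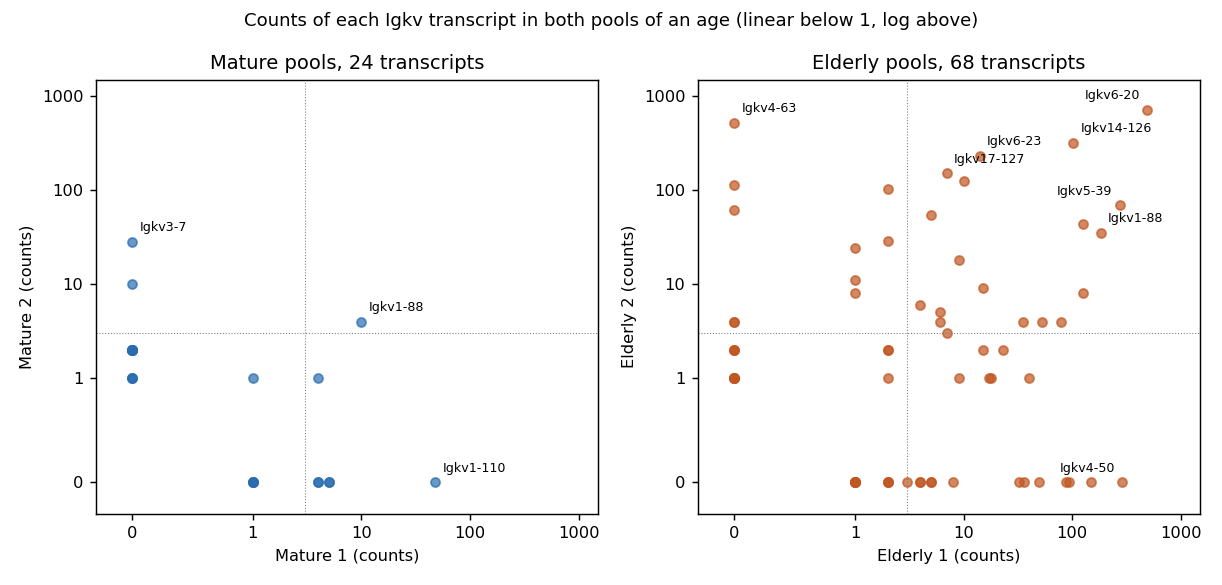
Counts of each Igkv transcript in pool 1 (x axis) and pool 2 (y axis) of the mature mice (left, 24 transcripts with a count) and the elderly mice (right, 68 transcripts), on axes that are linear below 1 and logarithmic above; dotted lines mark 3 counts. Igkv6-20 lies high in both elderly pools with 492 and 723 counts, whereas Igkv4-63 (0 and 520) and Igkv4-50 (287 and 0) lie on the axes.

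In the test of age for single members, 56 of the 99 had enough counts to be tested (more than 2 in all), and 22 of these (39.3%) were called higher in elderly mice and 0 lower, at an adjusted p under 0.05 and a log2 fold change over 2. Over all 42413 transcripts tested, 0.712% were called higher and 0.099% lower. Adjusted p-values of the 22 ran from 4.3e-10 to 0.0450. Both elderly libraries exceeded both mature libraries in 31 members (55.4%, against 20.4% of all transcripts), and the reverse held for 0 members (against 17.4%). The median log2 fold change of the 56 was 5.35, and 2.09 over the 51 that exceeded 3 counts in a library, when ages with 3 counts or fewer were set to 3 counts. The median over all transcripts was -0.0031. A member detected in 1 elderly library could enter the test only through that library, so these counts describe the members and do not stand for all 99.

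The number called depended on the method. It was 7 with DESeq2 and 6 without TMM factors. The calls for 4 members, Igkv6-20, Igkv14-126, Igkv5-39 and Igkv10-94, were made under each of 9 alternative fits that used all 4 libraries. When either elderly library was left out, 0 members and 0 transcripts of any kind were called.

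Igkv6-20 (chr6:70285835-70286500, reverse strand, 386.1 kb from Igkj1) had the strongest evidence. It stood at 0 and 0.17 CPM in the mature libraries and 43.8 and 49.4 CPM in the elderly libraries, with a log2 fold change of 8.94 (SE 0.54, adjusted p = 4.3e-10, edgeR). The ratio of summed counts was 555 (counting interval 153 to 4590), since only 2 mature counts were found. Igkv14-126 (chr6:67846171-67846636, forward strand, 2825.9 kb away) had 0, 2, 102 and 318 counts, a log2 fold change of 7.35 (SE 0.70, adjusted p = 1.2e-06) and a ratio of 192 (52.8 to 1590.1). With 1 library left out in turn, the log2 fold change was 8.02 to 12.19 for Igkv6-20 and 6.42 to 10.60 for Igkv14-126. In each case it was highest without mature pool 2, which held the 2 mature counts. The size of those highest values depends on the prior count, as 0 mature counts remained. The 40-base stretches of Igkv14-126 were 98.2% unique, so it has few stretches in common with other places in the genome.

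Igkv5-39 (chr6:69850418-69850704, reverse strand) had 0, 0, 272 and 69 counts. It was at least 57.02-fold higher in the mean of the elderly libraries, measured against 3 counts in each mature library (adjusted p = 1.4e-05). Igkv10-94 had 0, 0, 126 and 44 counts and was at least 28.03-fold higher (adjusted p = 4.5e-05). In each case the ages did not overlap, although the 2 elderly pools differed several-fold. Igkv10-94 was 49.4% unique and 94.6% identical to Gm16637, so the split of counts between them is uncertain.

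Igkv1-88 (chr6:68812259-68813025, reverse strand) was the member detected in all 4 libraries. Its counts were 10 and 4 in mature against 183 and 35 in elderly pools, with a log2 fold change of 3.94 (SE 0.69, adjusted p = 0.0021) and a ratio of summed counts of 14.2 (8.30 to 26.5). Without elderly pool 1, the log2 fold change was 1.99. Every 40-base stretch of it was unique. Igkv6-32, which was unique throughout as well, had 5, 0, 126 and 8 counts (log2 fold change 4.71, SE 1.02, adjusted p = 0.0131), and its log2 fold change without elderly pool 1 was 1.33. The size of both differences thus rests largely on elderly pool 1.

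Of the 22 called members, 15 had 0 counts in both mature libraries, and 9 had 3 counts or fewer in 1 of the elderly libraries. For the 15, lower bounds on the fold, taken from the mean of the elderly libraries, were 4.00 to 70.0 (median 16.3). Such a bound does not hold for each elderly pool alone. Igkv4-63, at least 70.0-fold higher in the elderly mean, owed its 520 counts to elderly pool 2 (adjusted p = 0.0038). Igkv4-50, at least 50.4-fold higher in the elderly mean, owed its 287 counts to elderly pool 1 (adjusted p = 0.0063). Each had 0 counts in the other elderly pool. Gm16637 (150 and 0 counts), Igkv12-44 (93 and 0), Igkv3-10 (88 and 0) and Igkv8-30 (40 and 1) were likewise found mainly in elderly pool 1. Igkv4-57-1 (0 and 113), Igkv6-15 (2 and 103) and Igkv6-14 (0 and 62) were found mainly in elderly pool 2. For these 9 members the age difference rests on 1 pool.

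The other called members were present in both elderly pools at unequal levels. Igkv6-23 had 14 and 232 counts, Igkv8-24 10 and 124, Igkv17-127 7 and 151, Igkv3-4 5 and 54, and Igkv8-19 9 and 18. Igkv1-117 had 79 and 4 counts and Igkv9-124 35 and 4. In the mature libraries, Igkv17-127 and Igkv1-117 had 2 counts each, Igkv9-124 had 1 and the others none. The log2 fold change of Igkv17-127 (5.88) was 2.73 without elderly pool 2, and that of Igkv1-117 (5.25) was 1.58 without elderly pool 1. Igkv17-127 was 27.8% unique and 96.2% identical to Igkv17-121, so its counts are uncertain. In all, 7 of the 22 called members were under 50% unique. Among them were Igkv3-10 (27.7%), Igkv1-117 (47.3%) and Igkv10-94 (49.4%), and their counts are uncertain as well.

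The leading mature members were not called. Igkv1-110 (chr6:68220521-68221261, forward strand) had 48 and 0 counts in mature and 53 and 4 in elderly libraries (log2 fold change 0.26, SE 0.93, adjusted p = 0.975), so that in CPM the mature pool 1 (4.04) and the elderly pool 1 (4.72) lay close together. Without mature pool 1, its log2 fold change was 7.94, so its value depends on that pool. With 0 mature counts left, the size of 7.94 depends on the prior count as well. In that fit 1 mature library is assumed to vary like the 2 elderly ones, and no p-value is given for it. Igkv1-110 was 46.6% unique and 96.8% identical to Igkv1-117, so the split of counts between them is uncertain. Igkv3-7 (chr6:70557732-70558030, forward strand) had 0, 28, 0 and 0 counts (log2 fold change -6.89, SE 1.95, adjusted p = 0.0896). With 0 elderly counts the size of that value depends on the prior count. Measured against 3 counts in each elderly library, Igkv3-7 was at least 5.04-fold lower there. It passed the test in favour of the mature mice with edgeR's exact test (adjusted p = 0.0101). Igkv5-45, 99.0% identical to Igkv5-43, had 0, 10, 8 and 0 counts. Igkv3-2 (0, 2, 15 and 9 counts), Igkv12-41 (0, 2, 5 and 0) and Igkv9-129 (0, 2, 2 and 0) were not called. Of the others that led in mature pool 1, Igkv6-17 (4, 0, 6 and 5 counts), Igkv8-27 (4, 1, 2 and 0), Igkv1-122 (4, 0, 2 and 0) and Igkv9-123 (5, 0, 0 and 0) were near the detection floor.

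**Figure D4:**
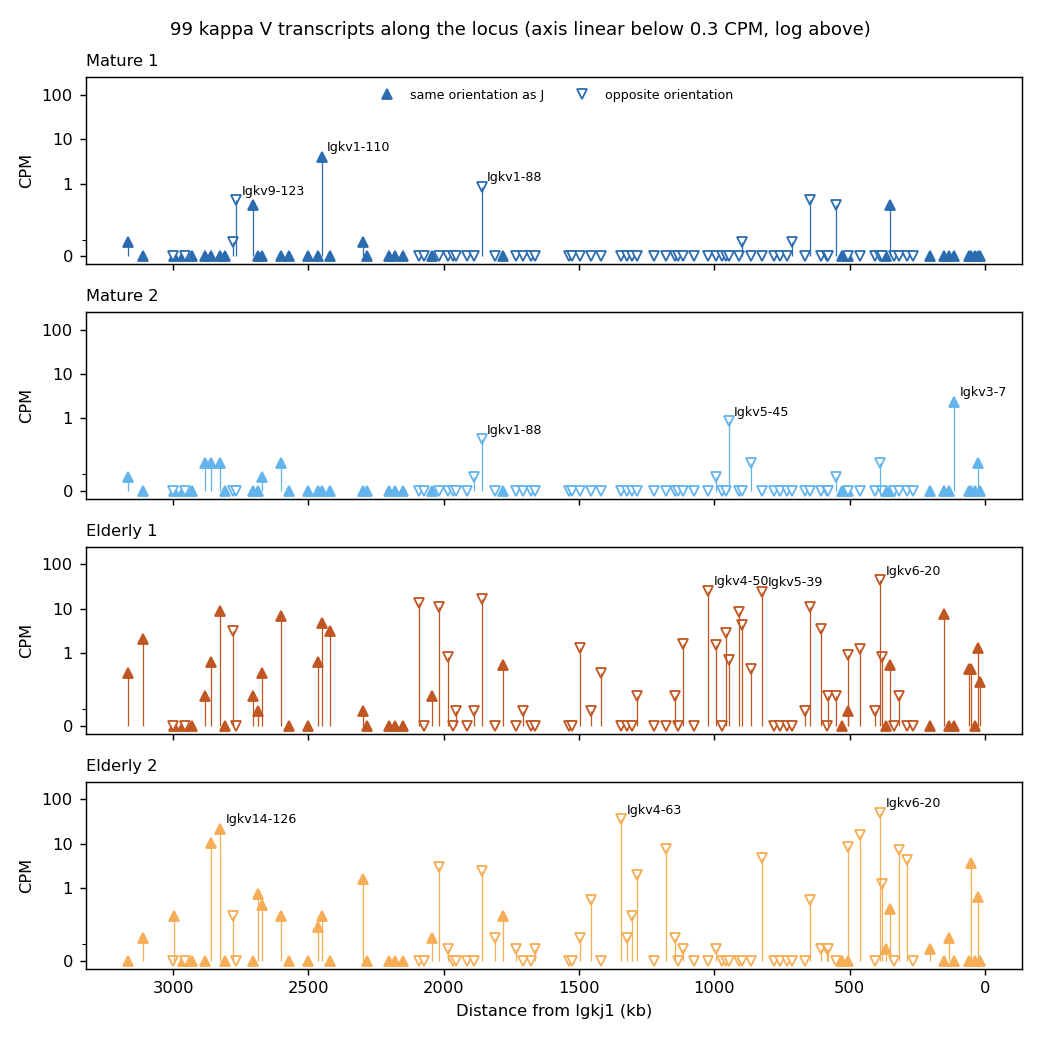
CPM of the 99 Igkv transcripts in each library (axis linear below 0.3, logarithmic above) against their distance from Igkj1 in kb. Filled upward triangles lie in the orientation of the J genes and open downward triangles in the opposite one; the 3 most abundant members of each library are named, and in both elderly libraries Igkv6-20, 386.1 kb away, is the highest.

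By family, the Igkv pool of the elderly mice was led by family 6, with 26.04% of the counts in pool 1 and 41.7% in pool 2, and family 4 followed in pool 2. Family 4, the most numerous with 24 members, had 0 counts in both mature libraries, where 3 counts correspond to shares of 3.53% and 4.92%. It had 331 and 685 counts in the elderly libraries (13.4% and 25.2%). These counts came from 4 and 5 detected members, with Igkv4-50 leading in 1 pool and Igkv4-63 in the other. Mature pool 1 was led by family 1 (74.1%), mature pool 2 by family 3 (49.2%). Family 5 had 346 counts (14.1%) in elderly pool 1 and 70 (2.58%) in pool 2, family 12 had 131 and 0, and family 17 had 8 and 162.

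At the level of families the elderly pools were more alike than at the level of members. Their Morisita-Horn index was 0.811, beside 0.563 by member, and that of the mature pools was 0.193, beside 0.0290. The called members belonged to 11 families, with 5 in family 6 and 3 in family 4. Families 11, 15 and 18, each of 1 member, had no counts in any library.

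**Figure D5:**
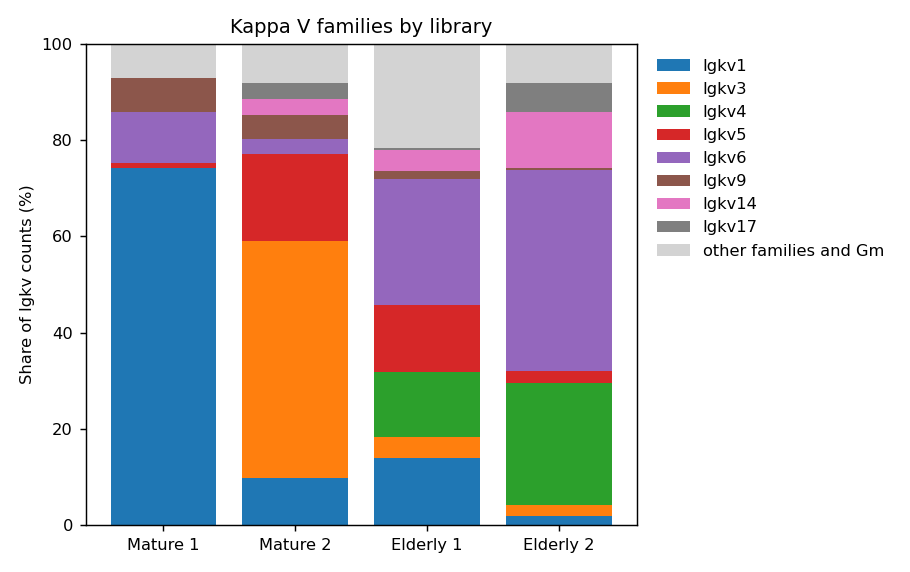
Share of Igkv counts (%) by V family in each library, for the 8 families with the largest share in any library; all others and the 2 Gm members are grey. Family 1 fills 74.1% of mature pool 1 and family 6 26.04% and 41.7% of elderly pools 1 and 2, and family 4 is absent from both mature bars.

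Orientation differed between the ages with the leading members included, but not without them. Forward-strand members held 68.2% (exact binomial interval 57.2 to 77.9) and 65.6% (52.3 to 77.3) of the Igkv counts in mature and 18.4% (16.8 to 19.9) and 22.3% (20.7 to 23.9) in elderly libraries. Without the most abundant member of each library, the shares were 27.03%, 36.4%, 22.9% and 30.3%, and the ages overlapped. In both orientations about the same part of the members was detected in any library, 20 of 38 forward (52.6%) and 31 of 61 reverse (50.8%).

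Members were detected along the whole locus. Divided into 3 groups of 33 by distance, 16 were detected among the proximal (18.4 to 821.9 kb from Igkj1), 17 among the middle (863.7 to 1953.5 kb) and 18 among the distal members (1967.0 to 3166.3 kb). The proximal group held 44.4% and 52.0% of the counts in the elderly libraries and 16.5% and 54.1% in the mature ones. The distal group held 26.1% and 21.3% in the elderly and 70.6% and 16.4% in the mature libraries. The elderly pools thus had similar shares by position, and the mature pools, each led by a single member, did not.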

How the data were processed

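RNA was measured in 4 libraries, 2 per age, grouped by the titles of the labels. The study's methods describe poly(A) selection, except for some named samples that were processed as total RNA. Whether any of the 4 libraries were among those samples is not given. A difference in preparation between the ages could not be told apart from age. The authors trimmed adapters with CutAdapt, mapped paired-end 40-base reads with HISAT2 to NCBI Build 37 (mm9), counted with featureCounts and deposited raw counts per Ensembl transcript. The strand setting of the counting is not given in the sources used here. Of the 95883 transcripts, 388 had no match in GENCODE M1 and held 0.0785% to 0.0888% of the counts. Transcripts with more than 2 counts in all were kept (42413) and scaled by TMM (0.996, 1.002, 1.072 and 0.935), and ages were compared with edgeR 4.0.16 (quasi-likelihood, trended dispersion, 2-sided, prior count 0.125, R 4.3.3), and the p-values were Benjamini-Hochberg adjusted across the whole table. Gene lists used counts summed per gene. Values of 1 listed gene are not reported here. SEs were taken from the log2 fold change and the F statistic. The edgeR test was checked on simulated counts, with differences placed in well-counted transcripts and in both elderly libraries alike. That check does not cover members at 0 counts in an age or found mainly in 1 pool.

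Sequences came from the Build 37 genome and GENCODE M1. Identity is 1 minus the edit distance over the longer V exon. The members with values in every library are the 5 most abundant of each library, the called members up to 20 by mean CPM, and those detected in all 4 libraries. Igkv9-124, Igkv8-19, Igkv6-29 and Igkv5-43 were added after their values were seen, and so were the sequences shown. No member was higher in both mature than in both elderly libraries. The members, lists and tests were chosen with earlier results of these data known. Alternatives were DESeq2 1.42.0, the exact test at a dispersion of 0.2, other filters, scalings, thresholds and prior counts, the replicate number as a term, and each library left out in turn.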

Additional observations from a re-analysis of the deposited data

How the results depend on the processing

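The number of members called higher (22) was 7 with DESeq2, which gave no adjusted p for 33 members, 8 with filterByExpr (9 members tested), and 6 with library size alone. It was 27 with the exact test, 28 without a filter, 20 with the robust fit (13 of them among the 22), and 22 with TMM factors computed without immunoglobulin transcripts, a prior count of 2, a log2 fold change over 1 or the adjusted p alone. Leaving out 1 library gave 0 to 26, with 0 called without elderly pool 1 or 2 (smallest adjusted p 0.655 and 0.715); in these fits edgeR's prior degrees of freedom were 1.80 and 1.81, beside 20.5 with all libraries. Where an age keeps 1 library, that library is assumed to vary like the 2 of the other age. The number called lower (0; DESeq2 0 as well) was 1, Igkv3-7, with the exact test, the robust fit and no filter, and 0 to 1 with 1 library left out; at an unadjusted p under 0.05, 38 members passed in either direction. With the replicate number as a block, 27 members were called higher, all 22 among them, and 1 lower. Same-numbered libraries shared only a number (correlation of their deviations 0.028).

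The median log2 fold change (5.35) was 8.85 with filterByExpr and 2.52 with a prior count of 2. The log2 ratio of the Igkv totals (5.04) was 5.72 without the top member of each library; adding kappa V transcripts of other biotypes changed nothing. Mean detected members, 5.0 mature and 32.5 elderly, were 13.5 and 50.5 at 1 count or more and 2.0 and 20.5 at 10 or more, and 3.45 and 5.38 at the smallest Igkv total (3.90 and 3 against 5.67 and 5.08 by library). In place of the leading share (51.2% mature, 23.3% elderly), the top 5 held 80.1% and 63.9%, the top 10 94.7% and 83.4% and the leading family 61.6% and 33.9%, and the effective numbers were 3.57 and 9.32. Shared members in the elderly pair (18) were 33 at 1 count, 7 at 10 counts and 3 of the top 10 (index 0.563), in the mature pair (1) 3 and 0 (index 0.0290), and between ages (mean 2.75) 9.5 and 0.75 (index 0.0729).

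Genes passing in the lists ranged, with 1 library left out, over 0 to 2 (kappa constant and joining), 0 to 2 (surrogate and lambda, 2 with library size alone), 0 to 3 (rearrangement and transcription), 0 to 1 (B lineage) and 0 to 4 (plasma cell). The log2 fold change changed sign, with 1 library left out, for Igkv9-129 (-0.98 to 0.98, with 0.0013 at a prior count of 2), Igkv1-122 (-4.19 to 0.069, highest without elderly pool 2), Igkv1-110 (-2.85 without elderly pool 1 to 7.94 without mature pool 1) and Igkv5-45 (-5.47 without elderly pool 1 to 5.14 without mature pool 2), of which none was called with all libraries. The cause of these changes was not tested. Depth limits the mature libraries, with 85 and 61 Igkv counts.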
